A study of Mus musculus with 9 samples.

Results

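The genes Car4, Hsd11b2, Clec2l, Doc2a and Greb1l were selected by their exact symbols, as 5 of the 38197 gene symbols in the deposited tables, because their values fell steeply over time in these data and because they lie outside the gene families usually followed in neural tube patterning. Since they were chosen on the libraries described here, their falls over time are given as a description with no test. All 5 genes were found and all 5 passed the filter on low counts, as did 14742 genes in total. Hsd11b2 and Doc2a also stand on a list of genes that the study drew up from samples that include these, so that list is no independent evidence of their direction.

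Wild-type mouse ESCs of strain 129 were grown as a monolayer and treated with retinoic acid (RA) and SAG, an agonist of Smo, by the sample labels from 0 to 3 days in differentiation conditions (DDC; the methods give a later change of medium), and NSCs of the ventral hindbrain were then sorted with magnetic beads against prominin-1. The 3 groups, 4.5DDC, 5.5DDC and 6.5DDC, share this genotype, strain, treatment and sort and differ in the time of collection, with 3 libraries of polyadenylated RNA each. The cell type label of the samples gives these times as 4, 5 and 6 days. Library totals lay between 11066572 counts in replicate 3 and 25506192 counts in replicate 1 of 5.5DDC. The labels do not say that replicates came from separate cultures, so p-values measure only the spread between these libraries, which may be technical.

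The label of the cells was checked against marker genes. All 9 neural progenitor markers had counts in every library, with Vim the most abundant. Mean Sox2 in FPKM (fragments per kilobase of transcript, scaled to the mapped reads; all ± values are SD of 3 libraries) went from 82.1 ± 5.18 over 85.3 ± 3.53 to 87.6 ± 7.37. From 4.5DDC to 6.5DDC, 1 of these 9 rose, against 9.21% of all genes, and 2 fell, against 9.53% (edgeR's quasi-likelihood test, adjusted after Benjamini-Hochberg). Prom1, which encodes the protein used for the sort, rose from a mean of 79.1 ± 14.3 to 183 ± 27.2 FPKM (adjusted p = 0.00364). Sox3 fell from 8.29 ± 5.34 to 2.38 ± 1.1 FPKM (adjusted p = 0.033) and Nkx6-1 from a mean of 44.6 to 20.4 FPKM (adjusted p = 0.022). Both of these calls were lost without replicate 2 of 4.5DDC (0.125 for Sox3 and 0.0833 for Nkx6-1) or of 6.5DDC (0.118 and 0.0802), and that of Sox3 also without replicate 1 of 6.5DDC (0.0666). The call of Sox3 was kept under 14 of 20 alternatives. It was lost too with limma voom and with limma on log2(FPKM + 1) and log2(FPKM + 0.1). The haemoglobin genes Hba-a1 and Hbb-bh1 had 0 FPKM in all 9 libraries. The libraries also differed by replicate number. In a fit with time point and replicate number, 798 of 14742 genes (5.41%) differed between replicate numbers. This used edgeR's quasi-likelihood F-test, with p adjusted after Benjamini-Hochberg to a threshold of 0.05, and does not say which number stood apart. With 1 library left out the count lay between 206 (without replicate 1 of 5.5DDC) and 1248 (without replicate 3 of 6.5DDC).

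The selected genes act in unrelated processes. Car4 is a carbonic anhydrase, an enzyme that interconverts carbon dioxide and bicarbonate, and is anchored to the outer face of the plasma membrane. Hsd11b2 encodes the enzyme that inactivates glucocorticoids and so shields receptors in the same cell from them, and it is known to be active in the fetal brain. Clec2l is a C-type lectin-like membrane protein of neurons, Doc2a is a calcium sensor with C2 domains that acts in vesicle release, and Greb1l is the paralogue of the hormone-responsive gene Greb1 and is needed for kidney and inner ear development.

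Car4 had the steepest fall of the selected genes. It lies on the plus strand of chromosome 11 of GRCm38, from 84957786 to 84966044, and GENCODE M21 gives it 6 transcripts, 2 of them protein-coding. Its level in replicates 1, 2 and 3 was 8.89, 5.79 and 5.10 FPKM at 4.5DDC, 1.61, 2.89 and 2.62 FPKM at 5.5DDC and 0.450, 0.817 and 0.844 FPKM at 6.5DDC. No groups overlapped, with 4.5DDC the highest and 6.5DDC the lowest. At 6.5DDC these levels rest on only 4, 15 and 7 counts, so that single reads weigh on them, against 137, 43 and 68 counts at 4.5DDC. In the fit of all 9 libraries the log2 change of Car4 was −1.28 (standard error 0.41) over the first interval, −1.98 (0.46) over the second and −3.25 (0.46) in all, and its level was 9.54-fold lower at the end. In a bulk sample such a fall cannot be assigned, since fewer cells with the transcript and less of it per cell cannot be told apart. Libraries are matched here and below by number only, which does not show that they belong together. Within replicate 1 the counts scaled to library size (CPM) at 6.5DDC were 4.05% of those at 4.5DDC, within replicate 2 they were 23.8% and within replicate 3 they were 9.31%.

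The promoter of Car4 is shown because the selected genes fell together and a shared motif could be looked for in the sequence before their starts. Of the 5 genes, 2 (Car4 and Clec2l) have an entry in the RefSeq promoter table on GRCm38.p6, with 250 bases before and 50 bases after the start, and Hsd11b2, Doc2a and Greb1l do not. The entry of Car4 is chr11:84957504-84957803 on the plus strand, printed 5′ to 3′ with the only motif found in capitals.
Car4: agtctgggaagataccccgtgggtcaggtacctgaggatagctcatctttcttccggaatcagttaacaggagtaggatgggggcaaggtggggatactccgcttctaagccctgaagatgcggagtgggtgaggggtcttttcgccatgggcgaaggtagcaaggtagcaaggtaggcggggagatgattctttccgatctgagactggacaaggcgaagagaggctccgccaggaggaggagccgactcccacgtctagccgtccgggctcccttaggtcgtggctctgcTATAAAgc
Searched on both strands were the Gli motif GACCACCCA, the nuclear receptor motif AGGTCA, the GC box GGGCGG, the TATA box TATAAA, the E-box CAGCTG and the glucocorticoid receptor motif AGAACA, which are present in 0.253%, 16.3%, 35.7%, 13.6%, 16.3% and 19% of the 32851 promoters in the table. In Car4 only TATAAA was found, on the plus strand. Its first base was at position 43, counted from 1 at the start site of the entry. GENCODE M21 starts Car4 further downstream, at 84957786, so this position depends on the annotation used. With either start the match lies after the start site, not before it. The window of Car4 held 15 CpG and 57.3% G and C, against medians of 7 CpG and 52.7% over all promoters in the table.

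Hsd11b2, the glucocorticoid-inactivating enzyme gene, lies on the plus strand of chromosome 8 from 105518755 to 105523988 and has 1 annotated transcript. It had 5.06, 5.31 and 2.21 FPKM in replicates 1, 2 and 3 at 4.5DDC, 1.81, 1.27 and 2.04 FPKM at 5.5DDC and 0.689, 0.442 and 0.518 FPKM at 6.5DDC. Its groups did not overlap, but replicate 3 of 4.5DDC lay close above the highest library of 5.5DDC. The log2 change of Hsd11b2 was −1.33 (standard error 0.37) over the first interval, −1.62 (0.39) over the second and −2.95 (0.40) over both, a 7.75-fold difference. The replicates divided this fall differently. From 4.5DDC to 5.5DDC, 35.1% of the CPM was left within replicate 1 and 23.4% within replicate 2, but 92.9% within replicate 3, where nearly the whole fall came over the second interval. At 6.5DDC between 16 and 19 counts were left in each library, against 203, 133 and 70 counts at 4.5DDC.

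Clec2l, the lectin-like gene, was the most variable of the selected genes. It lies on the plus strand of chromosome 6 from 38663069 to 38680864, with 1 annotated transcript. Its level was 19.9, 9.48 and 4.15 FPKM in replicates 1, 2 and 3 at 4.5DDC, 10.3, 2.99 and 3.52 FPKM at 5.5DDC and 2.87, 0.777 and 1.93 FPKM at 6.5DDC. Replicate 1 was the highest library at each time point and was higher than both others added. The libraries of 4.5DDC and 5.5DDC overlapped, whereas those of 6.5DDC lay below all others. The log2 change of Clec2l was −1.0 (standard error 0.65) over the first interval, −1.60 (0.68) over the second and −2.60 (0.70) over both, or 6.06-fold, and its standard errors are the largest of the selected genes. The change over both was −1.88 without replicate 1 of 4.5DDC. Within replicates 1, 2 and 3 the CPM at 6.5DDC were 13.9%, 8.33% and 46.1% of those at 4.5DDC.

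The entry of Clec2l in the promoter table is chr6:38662819-38663118 on the plus strand, shown for comparison with Car4 and with motifs in capitals.
Clec2l: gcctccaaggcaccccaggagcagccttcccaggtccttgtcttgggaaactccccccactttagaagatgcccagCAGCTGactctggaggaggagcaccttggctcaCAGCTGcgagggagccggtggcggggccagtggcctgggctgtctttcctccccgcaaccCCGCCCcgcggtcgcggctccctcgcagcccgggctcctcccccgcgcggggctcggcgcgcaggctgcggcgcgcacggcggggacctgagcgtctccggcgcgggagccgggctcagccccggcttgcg
It holds CAGCTG with its first base at −174 and −141 from the start, and GGGCGG on the minus strand, which reads CCGCCC here, from −81. None of the motifs searched was found in both promoters. The window held 29 CpG, more than 87.1% of the promoters in the table, and 73.7% G and C. These matches describe the letters of the window and say nothing of binding.

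The genes were not chosen on replicate number, and the difference between replicate numbers was tested for each of the 5. The test uses the same 9 libraries as the choice, and in Clec2l replicate 1 of 4.5DDC adds both to the fall and to this difference, so the result is not independent of the choice. Of these, 1 gene, Clec2l, passed the threshold that 5.41% of all genes passed (adjusted p = 0.0485 in the quasi-likelihood F-test of edgeR, after Benjamini-Hochberg), with replicate 1 higher than the mean of replicates 2 and 3 by 1.48 on the log2 scale, or 2.79-fold, at 3 of 3 time points. This p describes the difference and gives no support to the choice of the gene, and the call was near the threshold. It was kept under 7 of 15 alternatives and lost, among others, with library totals alone as the scaling (adjusted p = 0.0893), without replicate 1 of 4.5DDC (0.271), of 5.5DDC (0.252) or of 6.5DDC (0.0834), without replicate 2 of 5.5DDC (0.111) or of 6.5DDC (0.0658) and without replicate 3 of 5.5DDC (0.0962). Greb1l (adjusted p = 0.765, same test), Car4, Hsd11b2 and Doc2a (adjusted p = 1 each, same test) did not pass it, with replicate 1 differing from the mean of the others by 0.24, 0.12, 0.37 and −0.02 on the log2 scale. A difference between replicate numbers in these 4 genes was thus not detectable with these libraries.

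Markers of other cell types also differed between the replicates that set Clec2l apart. The summed level of 7 neuron markers in replicates 1, 2 and 3 was 159, 352 and 264 FPKM at 4.5DDC, 109, 367 and 378 FPKM at 5.5DDC and 185, 431 and 466 FPKM at 6.5DDC, lowest in replicate 1 each time. Stmn2 was the most abundant of them in 7 of 9 libraries and Elavl4 in replicate 1 of 4.5DDC and 5.5DDC, and none was at 0 counts in any library. The summed level of 6 epithelial markers, led by Krt18, was highest in replicate 1, with 84.5, 61.1 and 55.7 FPKM at 4.5DDC, 69.3, 53.3 and 58.5 FPKM at 5.5DDC and 57.0, 40.3 and 42.5 FPKM at 6.5DDC. This order rests on Krt18. Without it the other 5 sum to 25.9, 30.0 and 27.0 FPKM at 4.5DDC, 20.3, 27.9 and 29.2 FPKM at 5.5DDC and 24.0, 18.6 and 18.2 FPKM at 6.5DDC, so that replicate 1 was lowest at 4.5DDC and 5.5DDC and highest at 6.5DDC. The 6 endoderm markers, led by Gata4, were also highest in replicate 1, with 3.96, 3.77 and 14.5 FPKM at 4.5DDC, 5.5DDC and 6.5DDC against 0.853 to 2.28 FPKM in the other libraries. The part of these cells in the level of Clec2l was not tested.

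Over time, the neuron list and Clec2l went opposite ways within each replicate number from 4.5DDC to 6.5DDC in summed FPKM. This rests on the most abundant marker of each library, which was Elavl4 in replicate 1 of 4.5DDC and Stmn2 in the others compared. Without it the sums fell in replicates 1 (110.5 to 97.6 FPKM) and 2 (247.8 to 236.8), as Clec2l did, and rose in replicate 3 (194.7 to 266.5). Of the 7 neuron markers 0 rose and 1 (Isl1) fell. Counts of calls in these lists stand against 9.21% of all genes higher and 9.53% lower. Floor plate markers, led by Ntn1, summed to 599.5, 429.8 and 399.8 FPKM at 4.5DDC and 704.5, 744.8 and 798.8 FPKM at 6.5DDC. Foxa2 (0.18, adjusted p = 0.582) did not pass the test. Shh and Ntn1 rose, but neither call was kept without replicate 2 of 4.5DDC (adjusted p = 0.113 for Shh and 0.108 for Ntn1) or replicate 3 of it (0.0769 and 0.0871), nor without replicate 2 (0.114 and 0.07) or 3 (0.0599 and 0.0673) of 6.5DDC. Ntn1 also lost its call without replicate 2 (0.0501) or 3 (0.0539) of 5.5DDC or replicate 1 of 6.5DDC (0.0589). The call of Ntn1 was lost too with only the 6 libraries compared and with limma on log2(FPKM + 0.1). Mesenchyme and neural crest markers, led by Twist1, summed to 6.83, 10.3 and 6.21 FPKM at 4.5DDC and 15.9, 16.7 and 22.1 FPKM at 6.5DDC, with Sox10 and Foxd3 at 0 or near it. These sums were higher at 6.5DDC in every library, and all 5 markers tested had a log2 fold change above 0. Of them 1, Twist1, rose (0.74, adjusted p = 0.0276). Its call was lost without replicate 1 (0.077), 2 (0.0714) or 3 (0.0609) of 4.5DDC, replicate 2 of 5.5DDC (0.0544) or replicate 1 (0.0531) or 2 (0.0792) of 6.5DDC. It was also lost with only the 6 libraries compared and in replicates 2 and 3 alone. Pluripotency markers, led by Klf4, had Fgf4 at 0. Endothelial markers, led by Cdh5 in 7 of 9 libraries and with Cldn5 at 0, summed to 1.21, 3.90 and 4.07 FPKM at 4.5DDC and 8.69, 6.13 and 5.30 FPKM at 6.5DDC. They too were higher in every library of 6.5DDC, and all 4 tested had a log2 fold change above 0, of which 1, Kdr, rose from 0.526 ± 0.214 to 1.81 ± 0.318 FPKM (adjusted p = 0.0121). Blood markers summed to at most 0.439 FPKM. Epithelial markers, led by Krt18, went down as the selected genes did. All 6 had a log2 fold change below 0, with a median of −0.47, and 0 were called. Within replicates 1, 2 and 3 their sums went from 84.5, 61.1 and 55.7 FPKM at 4.5DDC to 57.0, 40.3 and 42.5 FPKM at 6.5DDC. The part of any of these cells in the falls of Car4, Hsd11b2, Clec2l, Doc2a and Greb1l was not tested.

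**Figure D1:**
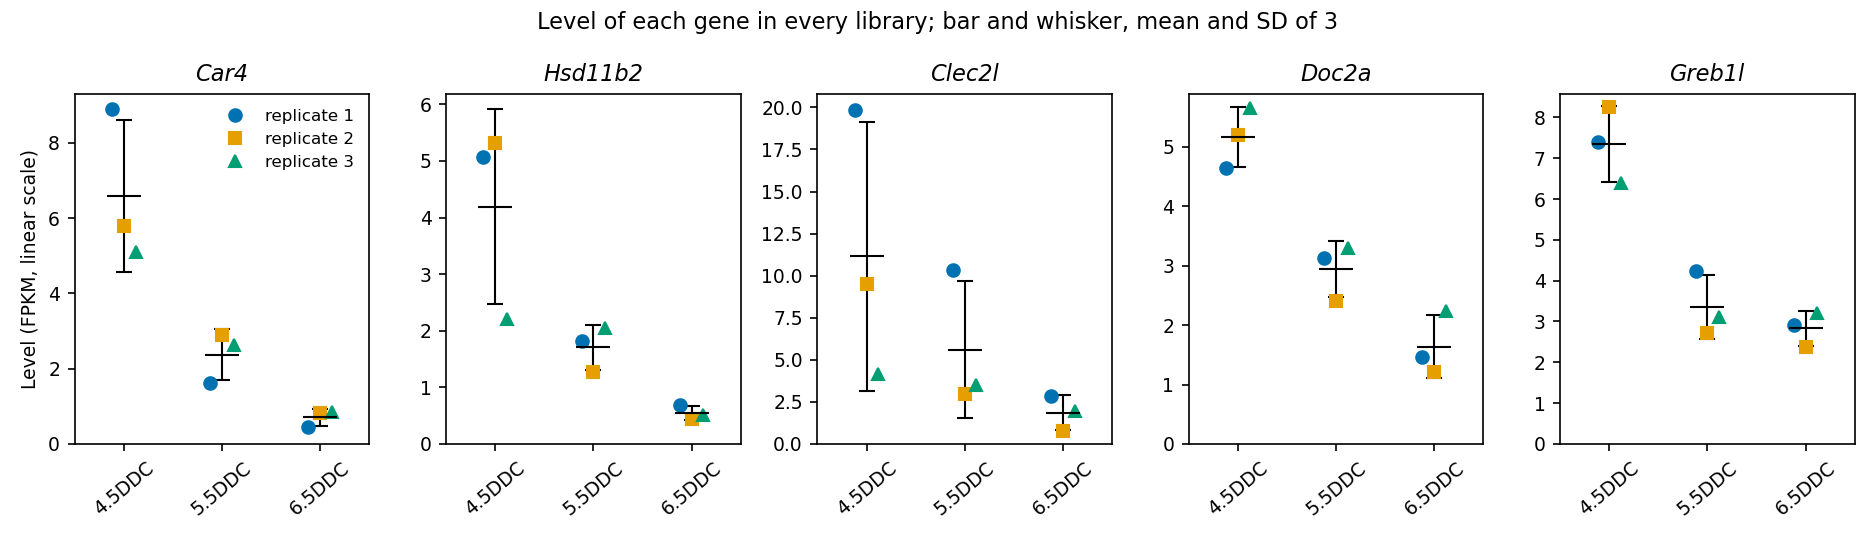
Level in FPKM (linear axes from 0) of the 5 selected genes in each of the 9 libraries by time point, with symbols for the replicate number and a bar and whisker for the mean and SD of 3 libraries. Car4 and Hsd11b2 went down to 0.704 and 0.550 FPKM at 6.5DDC, and replicate 1 of Clec2l lay above replicates 2 and 3 at each time point.

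Doc2a, the calcium sensor gene, had the most even replicates at 4.5DDC in FPKM, though not in CPM. It lies on the plus strand of chromosome 7 from 126847416 to 126852705 with 9 annotated transcripts, 7 of them protein-coding, and 39.4% of its exonic bases overlap Ino80e on the opposite strand. The level of Doc2a was 4.64, 5.20 and 5.65 FPKM in replicates 1, 2 and 3 at 4.5DDC, 3.13, 2.40 and 3.29 FPKM at 5.5DDC and 1.46, 1.22 and 2.23 FPKM at 6.5DDC. Its groups did not overlap in FPKM or in CPM. The log2 change of Doc2a was −0.84 (standard error 0.25) over the first interval, −0.99 (0.25) over the second and −1.83 (0.25) over both, which is 3.57-fold. Between 18.6% (replicate 2) and 40.7% (replicate 3) of the CPM was left at 6.5DDC within a replicate number. The sources used here do not say whether the counting used the strand, so reads of Doc2a and Ino80e in the shared stretch cannot be told apart, and the values of Doc2a are uncertain to that extent.

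Greb1l lies on the plus strand of chromosome 18 from 10325177 to 10562940, with 7 annotated transcripts, 2 of them protein-coding, and no overlap of its exons with another gene. It had 7.41, 8.26 and 6.39 FPKM in replicates 1, 2 and 3 at 4.5DDC, 4.24, 2.71 and 3.12 FPKM at 5.5DDC and 2.92, 2.37 and 3.21 FPKM at 6.5DDC. In FPKM the libraries of 5.5DDC and 6.5DDC overlapped, whereas in CPM they did not, with 24.5, 23.2 and 20.2 CPM at 5.5DDC and 18.8, 18.0 and 18.2 CPM at 6.5DDC. The log2 change of Greb1l was −1.29 (standard error 0.17) over the first interval, −0.27 (0.17) over the second and −1.56 (0.17) over both, or 2.95-fold. With 223 to 1159 counts in a library it was the best counted of the selected genes and had the smallest standard errors.

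In the fit, the first interval held 82.6% of the fall of Greb1l on the log2 scale, against 45.8% for Doc2a, 45% for Hsd11b2, 39.3% for Car4 and 38.4% for Clec2l. Within replicates 1, 2 and 3 the log2 CPM of Greb1l (with a prior count of 2) changed by −1.41, −1.17 and −1.25 over the first interval and by −0.28, −0.33 and −0.18 over the second. In Car4 the same differences were −1.83, −0.96 and −0.76 and then −2.24, −0.93 and −2.43, so that replicates 1 and 3 lost more in the second interval. The change of Clec2l was the larger over the second interval in each replicate number, that of Doc2a in replicates 1 and 3 and that of Hsd11b2 in replicate 3. In replicates 1 and 2 Hsd11b2 changed more over the first interval, as did Doc2a and Car4 in replicate 2. Whether the genes differ in the timing of their falls was not tested, since the falls chose them.

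**Figure D2:**
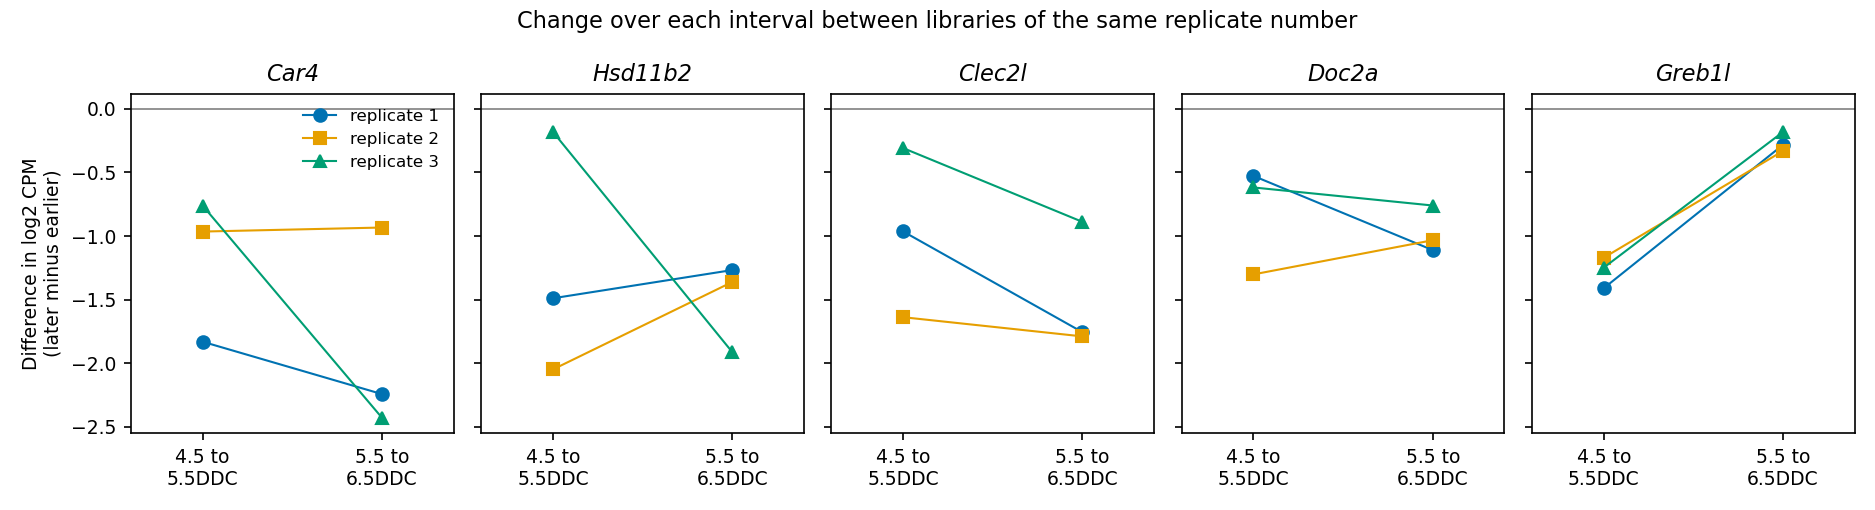
Difference in log2 CPM (later minus earlier library of the same replicate number) over the first and the second interval for the 5 selected genes, with symbols for the replicate number and a grey line at no change. Greb1l changed by −1.41 to −1.17 over the first interval and by −0.33 to −0.18 over the second, whereas Hsd11b2 in replicate 3 changed by −0.18 and then by −1.91.

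Set against the other genes, the falls of Car4, Hsd11b2 and Clec2l ranked 3, 9 and 17 among the 11741 tested genes whose mean at 4.5DDC was 2 FPKM or more, and those of Doc2a and Greb1l ranked 100 and 217. These ranks describe the choice. In all 5 genes every library of 6.5DDC lay below every library of 4.5DDC in FPKM, as in 16.7% of the genes tested, and nothing is read from this since the genes were selected on that difference. The mean level left at 6.5DDC, as a share of that at 4.5DDC, was 10.7% for Car4, 13.1% for Hsd11b2, 16.6% for Clec2l, 31.7% for Doc2a and 38.6% for Greb1l.

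The genes changed places in the order of mean FPKM. At 4.5DDC the order was Clec2l (11.2 ± 8.0 FPKM), Greb1l (7.35 ± 0.937), Car4 (6.59 ± 2.02), Doc2a (5.17 ± 0.506) and Hsd11b2 (4.19 ± 1.72), and the libraries of each neighbouring pair in this order overlapped. At 5.5DDC it was Clec2l (5.61 ± 4.08 FPKM), Greb1l (3.35 ± 0.791), Doc2a (2.94 ± 0.474), Car4 (2.37 ± 0.675) and Hsd11b2 (1.71 ± 0.395), again with overlap between neighbours. At 6.5DDC it was Greb1l (2.84 ± 0.427 FPKM), Clec2l (1.86 ± 1.05), Doc2a (1.64 ± 0.530), Car4 (0.704 ± 0.220) and Hsd11b2 (0.550 ± 0.126). Here Doc2a lay above Car4 in every library, and the other neighbours overlapped. In mean FPKM Car4 thus passed below Doc2a after 4.5DDC, and Greb1l above Clec2l after 5.5DDC. In replicate 3 Car4 was below Doc2a already at 4.5DDC (5.10 against 5.65 FPKM). In replicate 2 Car4 was still above Doc2a at 5.5DDC (2.89 against 2.40 FPKM). The first place of Clec2l at 4.5DDC leaned on replicate 1, with 19.9 FPKM against 7.41 for Greb1l. In replicate 2 Clec2l was above Greb1l (9.48 against 8.26 FPKM) and in replicate 3 below it (4.15 against 6.39). At 5.5DDC Clec2l was above Greb1l within each replicate number.

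The deposited FPKM and the counts did not give the same profile for all of these genes. For Hsd11b2 and Clec2l, with 1 annotated transcript each, the ratio of CPM to FPKM was nearly constant, between 2.15 and 2.25 and between 1.60 and 1.66 over the 9 libraries. For Car4 it lay between 0.521 and 1.29, for Doc2a between 1.47 and 2.45 and for Greb1l between 5.67 and 8.78. The SD of the log2 ratio was 0.44 for Car4, higher than in 96.5% of 11699 genes, 0.23 for both Doc2a and Greb1l and 0.02 for Hsd11b2 and Clec2l, against a median of 0.06. FPKM is computed over estimated transcripts, and Car4, Doc2a and Greb1l have several. In Car4, replicate 1 of 5.5DDC was the lowest library of that time point in FPKM and the middle one in CPM, with 2.08, 1.90 and 2.89 CPM in replicates 1, 2 and 3. The cause of these differences was not tested, and the share of each transcript was not analysed. The falls did not rest on this choice, since the log2 ratio of mean levels at 6.5DDC to those at 4.5DDC was −3.23 in FPKM and −3.29 in CPM for Car4, −1.66 and −1.84 for Doc2a and −1.37 and −1.56 for Greb1l.

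**Figure D3:**
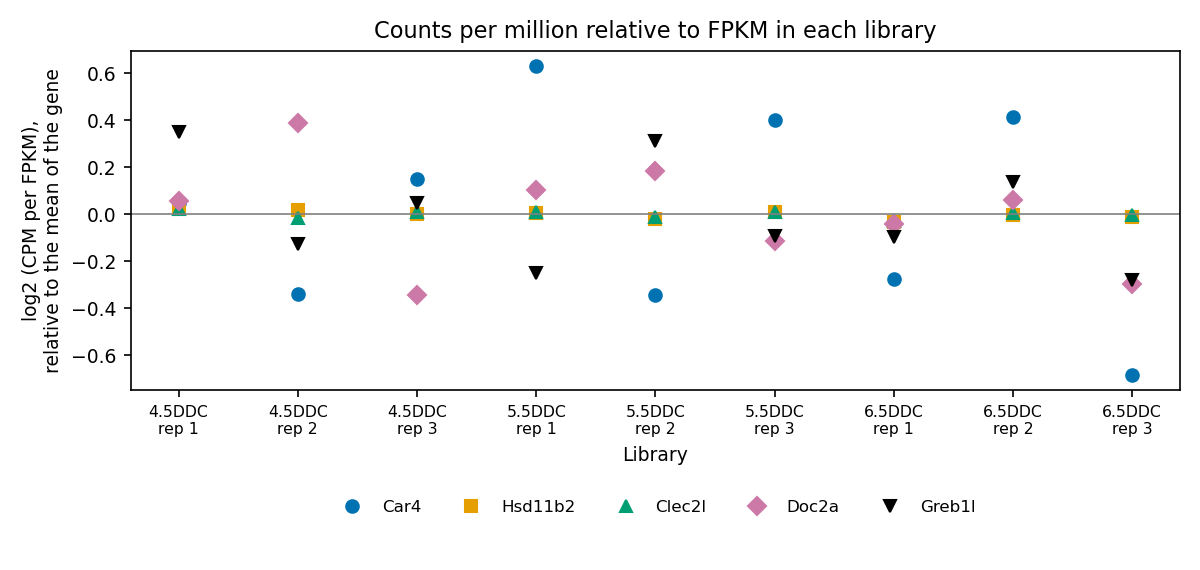
Ratio of CPM to FPKM on the log2 scale, relative to the mean of each gene, in each of the 9 libraries, with a symbol for each of the 5 selected genes. Hsd11b2 and Clec2l stay near 0 in all libraries, and Car4 spreads most, with an SD of 0.44.

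Between each other, Doc2a and Greb1l had the most alike profiles, with a root mean square difference of 0.38 between centred log2 CPM over the 9 libraries, and Car4 and Clec2l the least alike, with 1.0. The profiles were not scaled, so these values also depend on how steep the falls are. Doc2a and Greb1l had the smallest falls of the 5 (−1.83 and −1.56), with 45.8% and 82.6% of them in the first interval. The genes closest to Car4 by this measure were Nptx2 (0.47), Gli3 (0.48) and Pmaip1 (0.54). Nptx2, which encodes a neuronal pentraxin, had 5.79 ± 2.1, 2.67 ± 0.148 and 0.728 ± 0.121 FPKM at the 3 time points and was also among the 3 closest to Hsd11b2 (0.38), after Gm5648 (0.37) and Plk-ps1 (0.37). The closest to Clec2l were Gyltl1b (0.46), 6330403A02Rik (0.49) and Tubb4b-ps1 (0.54), and Gyltl1b had 19.2 ± 8.04, 13.3 ± 8.99 and 6.14 ± 1.1 FPKM. Doc2a had much closer matches in Nmral1 (0.17), Tonsl (0.17) and Rrp12 (0.17). The closest to Greb1l were Gm14016 (0.20), F11r (0.21) and Dnmt3b (0.25), and the DNA methyltransferase gene Dnmt3b went from 6.21 ± 0.991 through 3.73 ± 0.640 to 2.25 ± 0.359 FPKM. Likeness was taken over 11741 genes and describes these 9 libraries.

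The families and pathways of the selected genes were described from lists, and calls in them are read against 9.21% of 14742 genes higher and 9.53% lower at 6.5DDC than at 4.5DDC, with a median log2 fold change of 0.00 over all genes tested. The selected genes themselves are left out of these counts, and each adjusted p comes from the quasi-likelihood test of edgeR, after Benjamini-Hochberg.

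Of 8 other carbonic anhydrases tested beside Car4, 1 rose and 0 fell, with a median log2 fold change of 0.35. The size of the fall of Car4 itself follows from the choice. With DESeq2 2 rose and 1 fell, with a replicate block 1 rose and 1 fell, without replicate 1 of 6.5DDC 2 rose and 2 fell, and in replicates 2 and 3 alone 3 rose and 3 fell. Car11, a relative without catalytic activity, rose from 1.47 ± 0.426 to 6.32 ± 4.21 FPKM (log2 fold change 2.29, standard error 0.49, adjusted p = 0.0129). The 2 most abundant, Car2 (11.9 ± 8.62 to 31.2 ± 3.00 FPKM, adjusted p = 0.284) and Car14 (24.1 ± 9.35 to 18.2 ± 0.809 FPKM, adjusted p = 0.288), did not pass the test, and both passed it in replicates 2 and 3 alone, a choice made after seeing the data. At 4.5DDC Car4 thus stood below Car14 and at 6.5DDC far below Car2 and Car14. Among the bicarbonate and proton transporters described here, the sodium-proton exchanger genes Slc9a7 (1.76) and Slc9a9 (2.33) rose, and the proton channel gene Hvcn1 (−1.73), Slc9a5 (−1.56) and the monocarboxylate transporter gene Slc16a1 (−0.87) fell on the log2 scale, while Slc4a2 (−0.19, adjusted p = 0.642) and Slc4a7 (−0.09, adjusted p = 0.773), did not pass the test. Leaving out replicate 2 of 6.5DDC took the call from Slc9a5 (0.0677). That of Slc16a1 went without replicate 3 of 4.5DDC (0.0692) or replicate 2 (0.0873) or 3 (0.0591) of 6.5DDC.

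Around Hsd11b2, the enzyme of the opposite reaction, Hsd11b1, had 0 or 1 count in every library. The glucocorticoid receptor gene Nr3c1 rose from 1.83 ± 0.297 to 3.94 ± 1.09 FPKM while Hsd11b2 fell (log2 fold change 1.30, standard error 0.26, adjusted p = 0.0106), and the mineralocorticoid receptor gene Nr3c2 was not called (log2 fold change 0.55 in the count fit, adjusted p = 0.326, against a lower mean at 6.5DDC in FPKM). In mean FPKM Hsd11b2 was thus above Nr3c1 at 4.5DDC and below it at 6.5DDC. Of 9 corticosteroid enzymes and receptors tested besides Hsd11b2, 1 rose and 1 fell, and with a replicate block 1 rose and 2 fell. The fall without the block was that of Fkbp4, a cochaperone of steroid receptors and the most abundant of the list (−0.66, adjusted p = 0.0281). The call of Fkbp4 was kept under 14 of 20 alternatives. It was lost without replicate 2 of 4.5DDC (0.0928), without replicate 1 (0.0524) or 2 (0.104) of 6.5DDC and with only the 6 libraries compared (0.0556). With limma on log2(FPKM + 1) and log2(FPKM + 0.1) it was lost too (0.095 and 0.115). Of 13 glucocorticoid target genes tested 1 rose and 2 fell, with a median of 0.05. Fkbp5 (−1.21) and Zbtb16 (−1.25) fell and Glul (0.52) rose, the last not without replicate 1 of 4.5DDC (adjusted p = 0.0546) or replicate 2 of 6.5DDC (0.0543), and Tsc22d3 had 27.0 ± 3.81 and 26.9 ± 1.93 FPKM. The call of Glul was also lost with limma on log2(FPKM + 0.1) (0.0653).

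Clec2l was the only gene of the Clec2 and Nkrp1 lectin list with enough counts to be tested in the fit of all 9 libraries. With 1 library left out, 1 or 2 others were tested in 7 of 9 cases, and 1 was called higher in 3 of them (without replicate 1 or 3 of 5.5DDC or replicate 1 of 6.5DDC). Of the 14 others, 6 had 0 counts in all 9 libraries, and the mean of none reached 1 FPKM at any time point, with Clec2f (at most 0.587 FPKM) and Clec2d (at most 0.538 FPKM) the highest. The mean of Clec2l was higher at each time point, but at 6.5DDC its replicate 2 had only 0.777 FPKM.

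Of 25 other C2-domain proteins of vesicle release tested beside Doc2a, 5 rose, 2 fell and 18 were not called, with a median of 0.50. Syt1, the calcium sensor of fast synaptic release, rose from 2.23 ± 0.640 to 20.4 ± 3.64 FPKM (log2 fold change 3.19, standard error 0.36, adjusted p = 0.00133), against the fall of Doc2a from 5.17 ± 0.506 to 1.64 ± 0.530 FPKM. Syt4 (3.20, adjusted p = 0.0456) rose too, but under 10 of 20 alternatives it did not pass, the adjusted p reaching 0.129 without replicate 2 of 6.5DDC and lying over the threshold without any 1 library of 4.5DDC (0.101, 0.112 and 0.0871 for replicates 1, 2 and 3), replicate 2 (0.0613) or 3 (0.0615) of 5.5DDC and replicate 3 of 6.5DDC (0.0865). Rph3a had 0, 3 and 0 counts at 4.5DDC and 2, 24 and 59 at 6.5DDC, too few for a fold, and its call was kept under 8 of 19 alternatives. It was lost without replicate 1 (0.116), 2 (0.0714) or 3 (0.116) of 4.5DDC, 2 (0.0582) or 3 (0.069) of 5.5DDC and 2 (0.0962) or 3 (0.128) of 6.5DDC. Syt12 (−1.95) and Sytl2 (−1.63) fell as Doc2a did, and the most abundant of the list, Syt11 (0.49, adjusted p = 0.401) and Unc13b (0.32, adjusted p = 0.13), did not pass. The call of Syt12 was lost with limma on log2(FPKM + 1) (−0.69, adjusted p = 0.0941) and kept under 19 of 20 alternatives. The paralogues of Doc2a, named after their values were seen, had log2 fold changes of 1.49 (Doc2b, adjusted p = 0.152) and −1.32 (Doc2g, adjusted p = 0.0988). Without replicate 2 of 4.5DDC the count of rises in this list was 1, and in replicates 2 and 3 alone it was 10.

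Greb1l and its paralogue went down together. Greb1 fell from 8.91 ± 0.453 through 6.14 ± 2.12 to 3.88 ± 1.41 FPKM (log2 fold change −1.77, standard error 0.23, adjusted p = 0.00202), and under all 20 alternatives this passed the threshold (adjusted p up to 0.0324). Of 17 genes tested from the list of the GREB1 family and the RA response, 1 rose and 3 fell, with a median of −0.34. Greb1 is counted in this list as the paralogue of Greb1l. Besides Greb1 the falls were in Crabp1 (−2.65) and Crabp2 (−1.90), which encode cytoplasmic RA-binding proteins and were the most abundant of the list. Leaving out replicate 2 of 6.5DDC took the call from Crabp2 (0.0552). Among the alternatives, the rises in this list numbered from 0 (limma voom) to 3 (replicates 2 and 3 alone). The falls numbered from 2 (without replicate 2 of 6.5DDC) to 4 (with a replicate block). In replicates 2 and 3 alone the median was −0.05. Dhrs3, which encodes a retinaldehyde reductase, rose (2.67, adjusted p = 0.0297). Its call was lost without any 1 library of 4.5DDC (0.0808, 0.0833 and 0.0702 for replicates 1, 2 and 3) or replicate 2 (0.0907) or 3 (0.0733) of 6.5DDC. It was also lost with limma, by voom (0.1007) and on log2(FPKM + 1) (0.1035) and log2(FPKM + 0.1) (0.1114). Of 16 genes of Shh signalling tested 1 rose and 6 fell, with a median of −0.60. The rise, of Shh, was lost without replicate 2 (0.113) or 3 (0.0769) of 4.5DDC or replicate 2 (0.114) or 3 (0.0599) of 6.5DDC.

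**Figure D4:**
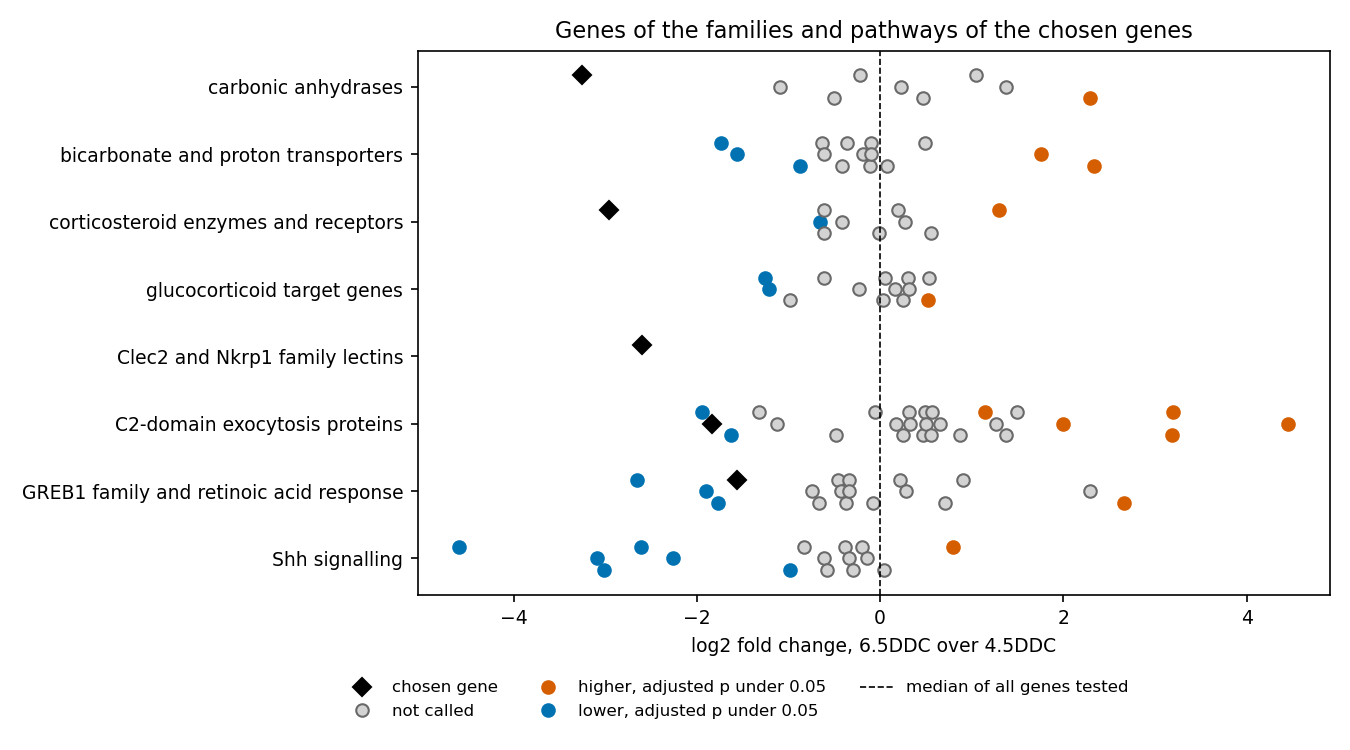
Log2 fold change from 4.5DDC to 6.5DDC (x axis) of the tested genes of each list (rows), with diamonds for the selected genes, filled colours for genes called higher or lower and grey for genes not called. The dashed line is the median of all genes tested, 0.00, and Car4 and Hsd11b2 lie at −3.25 and −2.95, as chosen.

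The nearest annotated protein-coding genes, 2 on each side of each selected gene, were measured to see what lies beside the falls. Of these 20 neighbours 15 were tested, and 2 were higher (9.21% of all genes were) and 4 lower (9.53% of all genes) at 6.5DDC, with a median of −0.14. Next to Hsd11b2, Atp6v0d1, a proton pump subunit gene whose annotation lies 0.476 kb away, rose from 38.9 ± 3.18 to 68.6 ± 3.84 FPKM (0.81, adjusted p = 0.00268). On its other side, Zdhhc1 (0.72, adjusted p = 0.26) and Tppp3 (0.13, adjusted p = 0.856) did not pass the test, and Zdhhc1 passed in replicates 2 and 3 alone (0.0447). Beside Car4, Myo19 fell (−0.84, adjusted p = 0.00853), and Znhit3 (−0.33) and Usp32 (0.52, adjusted p = 0.0517) did not pass the test. Usp32 was near the threshold and passed under 5 of 20 alternatives, among them without replicate 3 of 4.5DDC (0.0428), and Znhit3 passed in replicates 2 and 3 alone. Beside Clec2l, Luc7l2 (−0.14) and Hipk2 (−0.24) did not pass it either. Beside Doc2a, both Ino80e (−0.78, adjusted p = 0.0211), which overlaps it, and Hirip3 (−0.85, adjusted p = 0.0105) fell, and Fam57b (1.90, adjusted p = 0.1) did not pass, though it did under 4 of 20 alternatives, among them without replicate 1 of 6.5DDC (0.0428). Ino80e had 39.2 ± 5.86 FPKM at 4.5DDC and 25.7 ± 3.01 FPKM at 6.5DDC, well above Doc2a at both times. Its call was lost without replicate 2 of 4.5DDC (0.073) or of 6.5DDC (0.084), and that of Hirip3 without replicate 2 of 6.5DDC (0.0506). The call of Ino80e was lost too with only the 6 libraries compared and with limma on log2(FPKM + 1) and log2(FPKM + 0.1). Beside Greb1l, Snrpd1 fell (−0.85, adjusted p = 0.0187) and Esco1, 3.57 kb away, rose (0.61, adjusted p = 0.0345), while Rock1 (0.08) and Usp14 (−0.31) did not pass. Both calls were lost without replicate 2 of 4.5DDC (0.12 for Esco1 and 0.071 for Snrpd1) or of 6.5DDC (0.131 and 0.06). That of Esco1 was also lost without replicate 1 of 4.5DDC (0.0741) or replicate 2 (0.0625) or 3 (0.0588) of 5.5DDC, and that of Snrpd1 without replicate 3 of 4.5DDC (0.0528) or of 6.5DDC (0.0502). With only the 6 libraries compared the call of Esco1 was lost too.

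**Figure D5:**
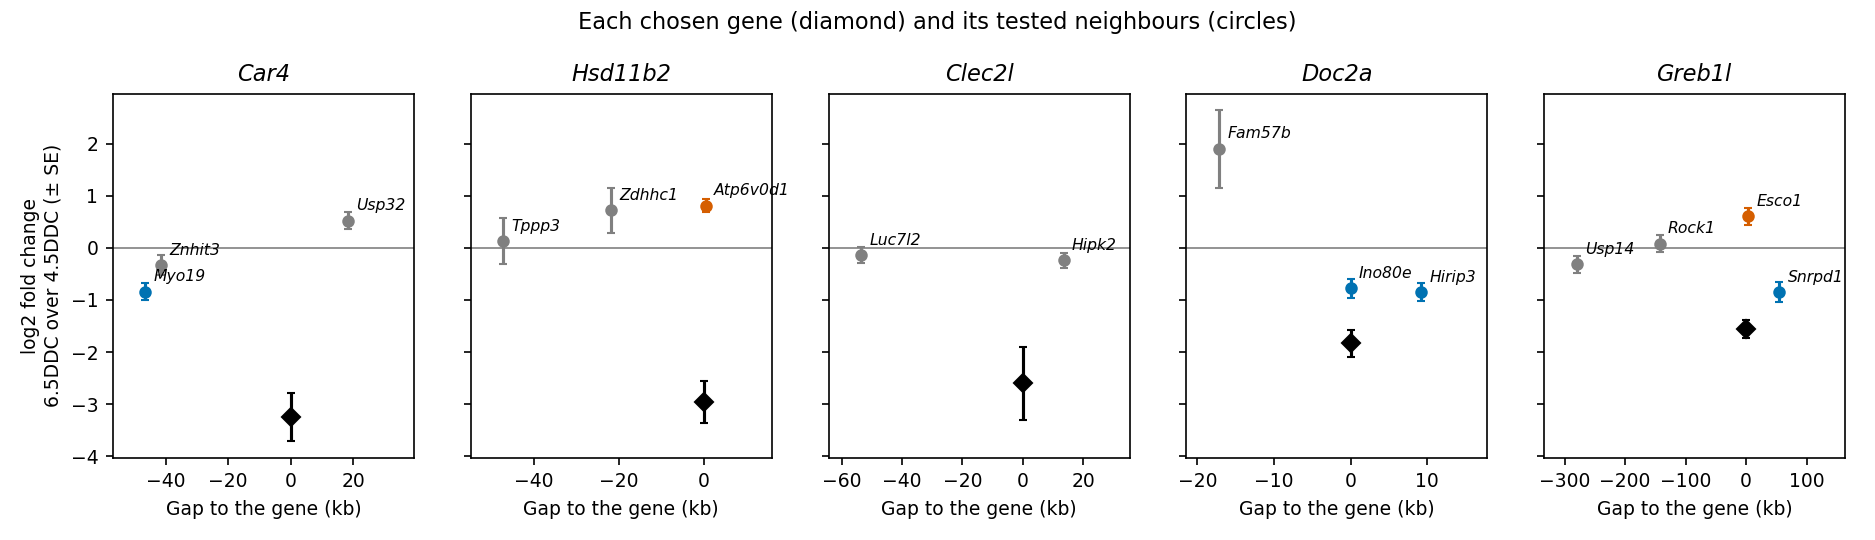
Log2 fold change from 4.5DDC to 6.5DDC with its standard error (y axis) of each selected gene (diamond) and of its tested neighbours (circles, coloured where called higher or lower), by the gap between the genes in kb (x axis, negative on the left). Atp6v0d1 at 0.81 lies beside Hsd11b2 at −2.95.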

How the data were processed

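The 9 libraries of prominin-1-sorted NSCs were grouped by the time in their sample titles (4.5DDC, 5.5DDC, 6.5DDC). The authors mapped reads to GRCm38 with TopHat2 (2.0.4) and deposited counts per gene from HTSeq (0.6.1). Since 98 of 38197 symbols had deposited values that are not whole, as in expected counts or estimated counts (at most 0.232% of a library), although whole counts had been assumed, all were rounded. The authors computed FPKM with Cufflinks (2.1.1), and the deposited FPKM were used as levels. A deposited table of log2 values was not used. The annotation release and the strand setting of the counting are not given in the sources used here.

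Genes were filtered with filterByExpr, scaled by TMM (factors 0.951 to 1.03) and fitted with edgeR 4.0.16 (R 4.3.3) by the quasi-likelihood method with time point as the factor over all 9 libraries (6 residual degrees of freedom), with Benjamini-Hochberg adjustment and a threshold of 0.05. From 4.5DDC to 6.5DDC, 2763 of 14742 genes (18.7%) were called. Differences between replicate numbers were tested with time point and replicate number as factors. Positions and neighbours came from GENCODE M21. The floor of 3 counts corresponds to 0.118 to 0.271 CPM and describes counting error, not spread between cultures. Before use, the scripts were tested on simulated data.

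Named were the 5 genes, for each the 3 genes with the most similar profile among genes with at least 2 FPKM at 4.5DDC and its 2 nearest protein-coding neighbours on each side, and from each of 8 lists all called genes (where over 6, the 3 largest rises and falls) and the 2 most abundant, besides cell type markers, with all called markers among the alternatives. Some of these are given as counts only. After the results were known, 1 gene was taken out of the transporter list and 1 out of the floor plate markers, with their sums and plots, for reasons unrelated to their values, so no counts of calls are given for these 2 lists. The genes, lists and rules were chosen with earlier results of these data known. Alternatives were RLE size factors, library totals, no filter, a minimum of 1 CPM in 3 libraries, DESeq2 1.42.0, limma 3.58.1 (voom, and log2 FPKM with pseudocounts of 1 and 0.1), a replicate block, a fit of the 6 libraries compared, each library left out and, added after the data were seen, replicates 2 and 3 alone. Tables and plots used Python 3.11.15, pandas 2.3.3, numpy 2.4.6 and matplotlib 3.10.9.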

Additional observations from a re-analysis of the deposited data

How the results depend on the processing

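The falls of Car4, Hsd11b2, Clec2l, Doc2a and Greb1l kept their direction under all 20 alternatives. With limma on log2(FPKM + 1), which understates changes of low genes, they were −2.13, −1.69, −1.94, −1.24 and −1.12 on the log2 scale in this order. Over all genes, between 1125 (without replicate 2 of 6.5DDC) and 3132 (without replicate 1 of 6.5DDC) were called from 4.5DDC to 6.5DDC with 1 library left out (1152 without replicate 2 of 4.5DDC), and 4586 in replicates 2 and 3 alone, a choice made after seeing the data. Genes differing between replicate numbers were 1273 with no filter, 1255 with DESeq2 and between 206 (without replicate 1 of 5.5DDC) and 1248 (without replicate 3 of 6.5DDC) with 1 library left out. The cause was not tested.

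For Clec2l the adjusted p of the edgeR test between replicate numbers, with Benjamini-Hochberg adjustment, was 0.0893 with library totals, 0.0512 with a minimum of 1 CPM and between 0.00352 and 0.271 with 1 library left out. With DESeq2 it was 0.00017. The sign reversed, in genes that were not called, for Slc4a2 (0.0208 and 0.0293) and Hipk2 (0.0533 and 0.0552) with limma on log2(FPKM + 1) and log2(FPKM + 0.1), for Hsd17b10 (−3.27e-05) and Slc4a7 (0.0468) in replicates 2 and 3 alone, for Slc4a7 also without replicate 3 of 4.5DDC (0.0265) or replicate 1 of 6.5DDC (0.0913), with −0.259 the lowest with 1 library left out, for Tppp3 without replicate 3 of 4.5DDC (−0.17) or replicate 1 of 6.5DDC (−0.13), with 0.44 the highest with 1 library left out, and for Rock1 (−0.0732) without replicate 2 of 4.5DDC, with 0.189 the highest.

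Over all genes, 3418 were called with a replicate block from 4.5DDC to 6.5DDC. No label says that the number pairs these libraries. For replicates 1, 2 and 3, deviations from the time point means correlated by 0.743, 0.386 and 0.452 between 4.5DDC and 5.5DDC, 0.454, 0.367 and 0.197 between 5.5DDC and 6.5DDC and 0.383, −0.0396 and −0.215 between 4.5DDC and 6.5DDC. The number was not taken as a pairing for the last comparison, where 2 of 3 were below 0, and not every library correlated best with its own number. Over the first and the second interval all these same-number correlations were above 0. The standard errors given for these intervals still come from the fit without the number. The depth limits Car4 most, with 4 to 15 counts per library at 6.5DDC.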
